A study of Homo sapiens with 3 samples.

Results

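A set of 10 genes of the immediate early response and of the AP-1 family were followed through single-cell RNA from breast cancer spheroids: *FOS*, *FOSB*, *FOSL2*, *JUN*, *JUNB*, *JUND*, *ATF3*, *EGR1*, *IER2* and *IER3*. They were chosen by symbol, as 10 of the 22499 genes with a symbol in the count tables, and each was found. CAMA-1 is an established estrogen receptor-positive breast cancer cell line. The sensitive lineage carried the yellow fluorescent label Venus while mCherry marked the resistant one, obtained by prolonged culture with the CDK4/6 inhibitor ribociclib. Each spheroid was seeded with 2000 cells, either 100% sensitive, 100% resistant or 50% of each, and all were given 1 µM ribociclib in DMSO, so no untreated spheroid was sequenced. After 11 days the harvested cells were frozen alive, thawed and washed in buffer warmed to 37 °C before loading on the 10X Genomics 3' platform, and this handling was common to the 3 libraries.

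There was 1 library per condition. The conditions therefore had no replicates, no test across samples was run, and every interval given here covers counting error only. The authors' annotation assigned the kept cells to 4 populations, with 3329 sensitive cells in monoculture and 2059 in coculture, and 7557 resistant cells in monoculture and 6292 in coculture. The median cell held 27622 to 35443 unique molecular identifiers (UMIs), the counted RNA molecules. The sensitive monoculture library stood apart: 51.9% of its barcodes had 30% or more mitochondrial UMIs, against 30.5% in the coculture library and 19.0% in the resistant monoculture library, and its kept cells had a median of 20.9% against 15.2% to 17.3% elsewhere. All 9 luminal epithelial markers were detected in each population, with a summed level of 8531 to 10552 UMIs per 1000000 (CPM), while 11 markers of immune, stromal, endothelial and basal cells summed to 3.93 to 8.40 CPM, with 0 to 4 of them at 0. Libraries shared 34 to 60 barcode sequences pairwise, of which 7 to 17 were among the annotated cells.

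Immediate early genes are switched on within minutes of a signal from growth factors, stress or cell handling, from transcription factors that are already present, and their messages are short-lived. FOS and JUN family proteins pair to form AP-1, which binds DNA and changes the transcription of genes for growth, invasion and stress. The cyclic AMP response element (CRE) and the serum response element, whose core is the CArG box, are known routes by which kinase signals reach these promoters. Tissue dissociation, freezing and thawing are known to induce the same genes.

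Promoter sequences are shown for the 5 members between which most of the highest correlations over single cells lay. The 250 bases before the RefSeq start, from a table built on GRCh38.p14, were searched in 9 of the 10 members (all but *IER3*) and in 35116 windows in all. Each window shown was found exactly once in GRCh37, the build of the counts, at chr14:75745281-75745530 (plus strand) for *FOS*, chr19:45971004-45971253 (plus) for *FOSB*, chr1:59249720-59249969 (minus) for *JUN*, chr5:137800918-137801167 (plus) for *EGR1* and chr19:13260975-13261224 (plus) for *IER2*. Capitals mark the CRE core TGACG on either strand, written CGTCA where it lies on the minus strand, and the CArG box.
FOS: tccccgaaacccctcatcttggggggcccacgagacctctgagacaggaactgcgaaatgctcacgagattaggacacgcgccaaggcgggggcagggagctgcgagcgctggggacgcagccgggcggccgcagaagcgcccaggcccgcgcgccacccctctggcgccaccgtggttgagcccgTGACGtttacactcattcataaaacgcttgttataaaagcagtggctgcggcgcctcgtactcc
FOSB: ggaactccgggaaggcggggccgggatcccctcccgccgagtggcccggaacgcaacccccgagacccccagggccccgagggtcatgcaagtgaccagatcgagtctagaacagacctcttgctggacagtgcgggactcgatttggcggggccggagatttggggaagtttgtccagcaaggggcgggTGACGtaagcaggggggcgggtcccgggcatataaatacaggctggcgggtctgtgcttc
JUN: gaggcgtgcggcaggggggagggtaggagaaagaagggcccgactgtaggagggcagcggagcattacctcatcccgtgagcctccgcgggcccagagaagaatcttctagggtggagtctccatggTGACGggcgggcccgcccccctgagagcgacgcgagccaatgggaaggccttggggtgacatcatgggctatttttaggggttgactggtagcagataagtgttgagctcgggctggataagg
EGR1: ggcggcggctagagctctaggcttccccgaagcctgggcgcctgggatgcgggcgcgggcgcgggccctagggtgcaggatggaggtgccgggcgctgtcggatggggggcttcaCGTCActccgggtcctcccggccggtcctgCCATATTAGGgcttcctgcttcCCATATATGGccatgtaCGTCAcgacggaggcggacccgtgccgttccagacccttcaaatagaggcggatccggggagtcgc
IER2: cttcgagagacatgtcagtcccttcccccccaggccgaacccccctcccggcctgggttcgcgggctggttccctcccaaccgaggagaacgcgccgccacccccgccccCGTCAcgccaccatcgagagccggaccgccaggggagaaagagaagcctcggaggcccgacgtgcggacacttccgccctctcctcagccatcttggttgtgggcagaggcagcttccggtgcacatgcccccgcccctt

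The CRE core was in the windows of 8 of 9 members, and in 21.2% of all windows. The full palindrome TGACGTCA, which contains the core on both strands, was in *JUND* alone among the members and in 1.65% of windows. *EGR1* held 2 CArG boxes, and 1.16% of windows held at least 1. The AP-1 site TGACTCA was in 0 of 9 members and 4.20% of windows, and the letters TATAAA were in 4 (*ATF3*, *FOS*, *FOSB* and *JUNB*) and in 10.7%. In *FOS* and *FOSB* the CRE core lay at similar distances from the start, beginning 64 and 60 bases before it. A match describes letters in these windows and does not show that a factor was bound.

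The FOS family members differed from each other in their pattern over the populations. *FOS* (chr14:75745529-75748933), the founding partner of JUN, was at 71.9 CPM in monocultured and 64.9 in cocultured sensitive cells, and at 98.6 in cocultured and 72.4 in monocultured resistant cells. Resistant cells in coculture stood alone as the high population, and the intervals of the monocultures overlapped. *FOSB* (chr19:45971253-45978437), a close relative that keeps the activating domains, was at 42.6, 56.9, 71.7 and 69.1 CPM in the same order. Its lowest level was in sensitive monoculture and no neighbours in the order of levels had overlapping intervals. *FOSL2* (chr2:28615315-28640184), which lacks the strong activation domain of FOS, was low everywhere, with 5.77, 3.24, 1.78 and 1.49 CPM and 230 to 555 UMIs per population. It ran opposite to *FOSB*, highest in sensitive monoculture by 3.88 times over resistant monoculture, and the intervals of the resistant populations overlapped.

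**Figure D1:**
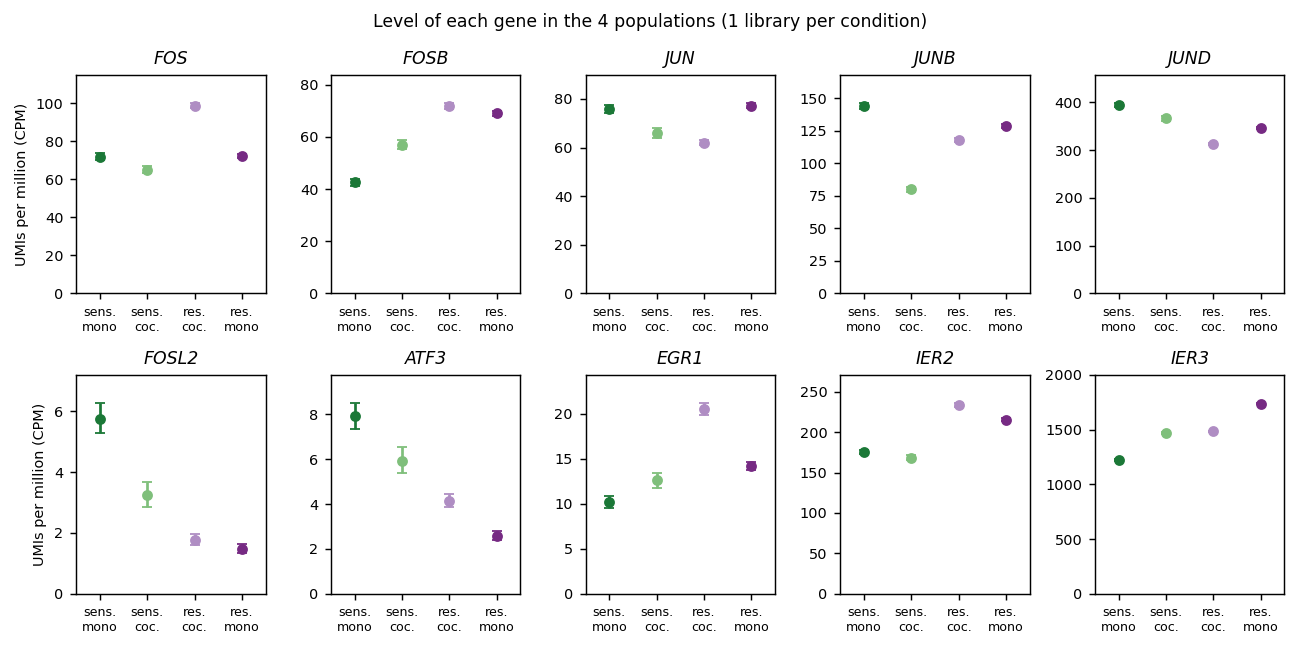
Level of each gene as UMIs per 1000000 (CPM, vertical axes from 0) for sensitive (sens.) and resistant (res.) cells in monoculture (mono) and coculture (coc.), with exact 95% Poisson intervals. *FOS*, *FOSB*, *EGR1* and *IER2* were highest in resistant coculture, and *JUNB*, *JUND*, *FOSL2* and *ATF3* in sensitive monoculture.

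Among the JUN proteins, which can pair with each other as well as with FOS proteins, *JUN* (chr1:59242517-59249720) had the smallest ratio of highest to lowest level of the 10 members, 1.25, at 75.9, 66.0, 62.0 and 77.3 CPM from sensitive monoculture through the cocultured populations to resistant monoculture. Both monocultures were above both cocultured populations, and the monocultures' intervals overlapped. *JUNB* (chr19:12902300-12904129), often a restraint on JUN, was at 143.8, 79.9, 117.5 and 128.5 CPM. Sensitive cells of the coculture were set off from the other 3 populations, 1.80 times below sensitive monoculture. *JUND* (chr19:18390504-18392432), which is expressed steadily in resting cells, was at 394.7, 366.5, 312.9 and 346.7 CPM, with sensitive cells above resistant ones in both settings.

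*ATF3* (chr1:212738676-212794119), a stress-induced factor that can pair with JUN proteins, had the same order of populations as *FOSL2*, at 7.91, 5.94, 4.15 and 2.58 CPM. It was 3.06 times higher in sensitive than in resistant monoculture. *EGR1* (chr5:137801168-137804992), a zinc finger factor downstream of growth factor signals, was at 10.2, 12.6, 20.5 and 14.2 CPM. Resistant coculture was 2.01 times sensitive monoculture, and no neighbouring intervals overlapped for either gene.

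*IER2* (chr19:13261225-13265725), a nuclear protein of the immediate early response, was at 175.3, 168.5, 233.6 and 215.7 CPM, higher in both resistant populations than in both sensitive ones. *IER3* (chr6:30710976-30712325), an inducible regulator of survival, was at 1220.6, 1468.9, 1485.5 and 1735.3 CPM. It held 56.8% to 65.2% of all member UMIs in a population. Summed values of the 10 genes, at 2149 to 2663 CPM, were therefore largely values of *IER3*.

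Cocultured sensitive cells were compared with sensitive monoculture, to ask how sensitive cells differed next to resistant ones. A gene was counted where its log2 ratio of CPM + 1 passed 1.5-fold, among genes with at least 50 UMIs over both populations. By that rule 0 members were higher, where 5.13% of 12327 genes were, and 2 were lower, where 5.91% of genes were. These were *JUNB* at -0.84 (95% counting interval -0.88 to -0.79) and *FOSL2* at -0.67 (-0.85 to -0.50). *FOSB* at 0.41, *EGR1* at 0.28 and *IER3* at 0.27 lay on the other side, and the median over the 10 members was -0.13, against -0.05 over all genes. *JUNB* was at -0.85 in cells under 15% mitochondrial UMIs and at -0.82 in cells in G1. The cells under 15% were 461 of 3329 in sensitive monoculture and 729 of 2059 in sensitive coculture. Among resistant cells they were 3029 of 6292 in coculture and 3445 of 7557 in monoculture. *FOSL2* was at -0.73 in the cells under 15%, where *ATF3* at -0.64 also passed 1.5-fold. It was below 1.5-fold in G1 cells, at -0.57, and with a pseudocount of 10 CPM, at -0.25. Log-normalized values averaged over cells, an alternative which also raises the offset to 1 per 10000 UMIs (100 CPM), had *JUNB* at -0.43 and *FOSL2* at -0.03, below 1.5-fold. The same offset of 100 CPM on the summed UMIs, an alternative chosen after seeing the data, had them at -0.44 and -0.03. At levels as low as those of *FOSL2*, even full absence from either population would not pass 1.5-fold with this offset.

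Between the monocultures, resistant over sensitive cells, 1 member was higher (6.66% of 12970 genes) and 2 were lower (12.5% of genes). *FOSB* was at 0.69 (0.64 to 0.73), *FOSL2* at -1.44 (-1.58 to -1.31) and *ATF3* at -1.31 (-1.43 to -1.20). *FOS* and *JUN* were at 0.01 and 0.03, with intervals that included 0. The median over the members was 0.02, against -0.07 over all genes, and it changed sign without mitochondrial genes in the library size. More members were higher with TMM scaling and in cells with 2 or more transgene UMIs. The same held in the middle tertile of cells by their summed heat shock genes. These libraries also differed in mitochondrial share. Cells under 15% were only 461 of 3329 sensitive and 3445 of 7557 resistant ones. In them *FOSB* was at 0.43, below 1.5-fold, while *FOSL2* was at -1.24 and *ATF3* at -1.55. With per-cell log-normalized values *FOSB* was at 0.22, *FOSL2* at -0.06 and *ATF3* at -0.05, and with the offset of 100 CPM on the summed UMIs at 0.25, -0.06 and -0.07. *FOSL2* and *ATF3* are too low to pass 1.5-fold with this offset, even if absent from either population. Phase differed too, with 89.0% of sensitive and 50.0% of resistant monoculture cells in G1. The parts of the mitochondrial share and of phase in these differences were not tested.

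Resistant cells of the coculture were compared with resistant monoculture. Here 0 members passed 1.5-fold in either direction, where 0.669% of 13156 genes were higher and 0.0304% lower. *ATF3* at 0.53 (0.41 to 0.64), *EGR1* at 0.50 (0.44 to 0.56) and *FOS* at 0.44 (0.41 to 0.47) were the highest members, and *JUN* at -0.31 (-0.34 to -0.28) the lowest. A call was gained under 4 alternatives: *ATF3* passed 1.5-fold at 0.67 with a pseudocount of 0.1 CPM and at 0.64 in G1 cells, and *EGR1* at 0.61 in cells under 15% mitochondrial UMIs and at 0.59 in the middle tertile of cells by their summed heat shock genes. *FOSB* was at 0.05 and crossed to -0.02 under TMM scaling. The median over the members was 0.08, against 0.03 over all genes. For 5 members the coculture ratio had opposite signs in sensitive and resistant cells, with counting intervals that left out 0 in both, as it had for 22.1% of 12244 genes. Every member had intervals that left out 0 in both comparisons. Genes with few UMIs have wider intervals and qualify less easily, so that share is not a like measure.

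Within the coculture library, where both lineages shared handling and sequencing, resistant cells had 2 members higher (2.04% of 12774 genes) and 1 lower (4.09%). *EGR1* was at 0.66 (0.56 to 0.76) and *FOS* at 0.60 (0.55 to 0.64), and *FOSL2* at -0.61 (-0.78 to -0.44). *JUNB* at 0.55 and *IER2* at 0.47 were short of 1.5-fold. *FOS* fell short of it without mitochondrial genes in the library size, at 0.57, after thinning to 10000 UMIs per cell, at 0.54, and in cells under 15% mitochondrial UMIs, at 0.52. In the cells under 15% *FOSL2* was short of it too, at -0.46, and *JUNB* passed at 0.59. *IER3* was at 0.02, with values from -0.07 to 0.05 over the alternatives. The median over the members was 0.17, against 0.0010 over all genes. The per-cell log-normalized values had *EGR1* at 0.08, *FOS* at 0.24 and *FOSL2* at -0.02, and the offset of 100 CPM on the summed UMIs had them at 0.10, 0.27 and -0.02. *EGR1* and *FOSL2* are too low to pass 1.5-fold with this offset, even if absent from either population. A pseudocount of 10 CPM left 0 members past 1.5-fold. Of the annotated coculture cells 1127 of 2059 sensitive and 3932 of 6292 resistant ones had 2 or more UMIs of the transgenes that mark the lineages. In those cells *FOS* was at 0.71 and *EGR1* at 0.62, and *FOSL2* at -0.55 was below 1.5-fold. The 4 comparisons share populations and so are not independent of each other.

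**Figure D2:**
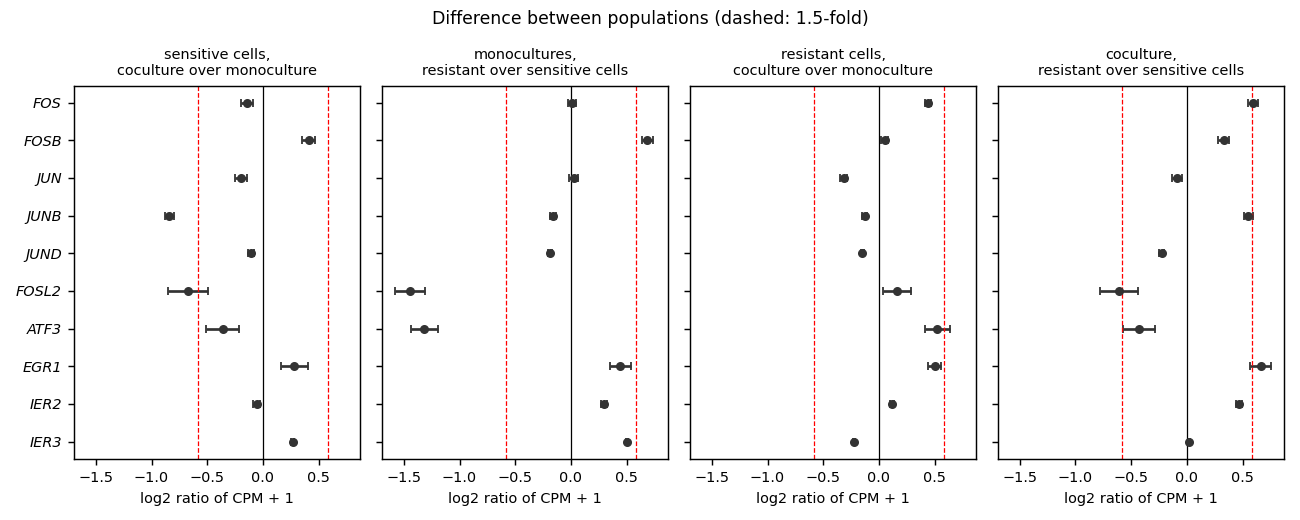
Log2 ratio of CPM + 1 for each gene (vertical) in the 4 comparisons, with 95% counting intervals; dashed lines mark 1.5-fold. *JUNB* and *FOSL2* lie left of the dashed line in cocultured sensitive cells, and *EGR1* and *FOS* lie right of it between the lineages of the coculture, although *FOS* is short of it in cells under 15% mitochondrial UMIs, which are not drawn.

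Other genes of the same response were highest in sensitive monoculture as a summed list. Of 32 other immediate early genes 27 could be compared. In sensitive cells of the coculture 1 was at least 1.5-fold higher (5.13% of all genes) and 7 were lower (5.91%), with a median of -0.42. Between the monocultures 2 were higher (6.66% of all genes) and 14 lower (12.5%), with a median of -0.59. Examples were *DUSP2* at -1.44 in cocultured sensitive cells and *DUSP1* at -0.88, both phosphatases that turn off MAP kinases, and *BTG2* at -1.30 between the monocultures, an antiproliferative factor. *ARC* at 0.60 was the one higher in coculture, named after its value was seen. Their summed level was 1456 CPM in sensitive monoculture and 981 to 1030 CPM elsewhere. Sensitive monoculture is also the library that stood apart in mitochondrial share, with 51.9% of its barcodes at 30% or more and a median of 20.9% in its kept cells. It stood apart in phase too, with 89.0% of its cells in G1 against 49.7% to 55.3% in the other populations. The parts of that share and of phase in the list's level were not tested.

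Of 13 further AP-1 subunits, 9 could be compared. In sensitive cells 0 were higher (5.13% of all genes) and 2 lower (5.91%) in coculture, with a median of -0.24, and between the monocultures 0 were higher (6.66%) and 4 lower (12.5%), with a median of -0.54. *JDP2*, a repressor that pairs with JUN, was at -0.77 and -1.12. Among 20 known AP-1 targets 14 could be compared, with 2 higher and 3 lower in cocultured sensitive cells, and 3 higher and 4 lower between the monocultures, beside the same shares of all genes. *TGFB1*, a growth-inhibiting cytokine in epithelium, was at 1.22 and 1.37, and *CD44*, a hyaluronan receptor, at -0.77 and -1.41.

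The 17 inducers, kinases and factors upstream of these promoters, had 0 higher and 1 lower in cocultured sensitive cells, where 5.13% of all genes were higher and 5.91% lower. Between the monocultures 1 was higher and 4 lower, where the shares were 6.66% and 12.5%. The single inducer lower in cocultured sensitive cells is close to the share of all genes, and so is the single one higher between the monocultures. *RPS6KA5*, the kinase MSK1 that modifies chromatin at these genes, was at -0.66 and -0.79. Of 15 integrated stress response genes 13 could be compared, with 0 higher and 2 lower in cocultured sensitive cells, and *HERPUD1*, which takes part in degrading proteins of the endoplasmic reticulum, was at -1.12. Between the monocultures 1 was higher and 1 lower, beside the same shares of all genes. *DDIT4*, a stress-induced inhibitor of mTOR signalling, was at 0.81, and *SESN2*, a stress-induced sestrin, at -0.62.

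Cell cycle phase was called by the authors from the same RNA. In sensitive monoculture 1 member was at least 1.5-fold lower in S than in G1 (6.67% of 11686 genes) and 2 were lower in G2M (8.56% of 11682). In the same population 0 were higher in S (7.00% of genes) or in G2M (9.52%). *FOSL2* was at 6.19 CPM in G1, 3.17 in S and 3.19 in G2M. *JUND* was at 411.1 CPM in G1, 337.3 in S and 254.3 in G2M. Only 176 cells of that population were in S and 190 in G2M. In the other 3 populations 0 members passed 1.5-fold in S or G2M over G1. In sensitive coculture 5.69% of genes were higher and 2.07% lower in S, and 6.02% higher and 2.89% lower in G2M. The shares in resistant coculture were 4.68% and 0.939% in S, and 5.51% and 1.55% in G2M. In resistant monoculture they were 4.74% and 0.817% in S, and 5.89% and 1.19% in G2M. Of the 10 members 6 to 8 were highest in S in a population and 6 to 9 lowest in G2M. No share over all genes is given beside these counts. *JUNB*, *FOS*, *JUN*, *JUND*, *EGR1* and *IER2* were lower in G2M than in G1 in all 4 populations. *JUNB* was at 102.9 against 136.7 CPM in resistant monoculture. *FOSB*, *FOS*, *JUN*, *IER2* and *IER3* were highest in S in all 4. *FOSB* was at 55.0 against 41.5 CPM in G1 in sensitive monoculture and 75.1 against 68.2 in resistant monoculture. G1 cells made up 89.0% of sensitive monoculture and 49.7% to 55.3% of the other populations.

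Clusters, taken from the authors' annotation, are described without a test because genes of the same cells defined them. There were 27 pairs of population and cluster with 50 or more cells. Clusters 6 and 10 of resistant cells were high in *FOS*, *FOSB*, *JUN* and *EGR1* in both libraries. Other clusters matched cluster 6 in some of these genes. In resistant monoculture *FOS* was at 89.1 CPM in cluster 5 and 88.7 in cluster 6, and *FOSB* at 79.0 in cluster 9 and 78.9 in cluster 6. *JUN* was at 101.0 CPM in cluster 6 and 115.6 in cluster 10 of the coculture, against 62.0 over all resistant cells there. In resistant monoculture the values were 128.2 and 151.8, against 77.3. All 10 members were above the population value in cluster 10 of both libraries, and also in cluster 9 of resistant monoculture. No share over all genes is given beside this count. In cluster 10 the intervals of *FOSL2* and *ATF3* in both libraries, and of *JUNB* in monoculture, included the population value. So did those of *FOS*, *JUNB*, *EGR1*, *FOSL2* and *ATF3* in cluster 9 of resistant monoculture. *JUNB* and *JUND*, by contrast, were below it in cluster 6, with *JUNB* at 100.8 and 96.4 CPM. The median mitochondrial share in coculture and monoculture was 12.76% and 12.22% in cluster 10 and 13.59% and 13.61% in cluster 6. These were the lowest of the resistant clusters shown. Cluster 2, at 13.96% and 13.62%, was below the population value in *FOS*, *FOSB*, *JUN* and *EGR1*. Clusters 2 and 10 held 0% G1 cells, and cluster 6 held 57.99% and 52.60%. The parts of mitochondrial share and of phase in the cluster levels were not tested.

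Clusters 11 and 13 of resistant cells were low in *FOSB*, at 30.7 to 47.2 CPM. Cluster 11 was also low in *JUN* and cluster 13 in *FOS*, and in cluster 13 *ATF3* was 2.40 to 2.41 times its population's level. That rested on 12 *ATF3* UMIs in monoculture and 17 in coculture. Cluster 9 of resistant coculture had *ATF3* at 2.37 times, on 20 *ATF3* UMIs in 67 cells. Clusters 11 and 13 each rested on 51 to 89 cells. Cluster 11 had the highest median mitochondrial share of the resistant clusters shown, at 19.33% in coculture and 19.59% in monoculture. In cluster 13 it was 17.40% and 15.84%. G1 cells were 17.98% and 26.32% of cluster 11 and 98.18% and 96.08% of cluster 13. In sensitive monoculture cluster 8, with 681 cells, was high in *ATF3* (13.6 CPM), *EGR1* (17.4) and *FOSL2* (10.8), and *JUN* was at 106.1 CPM. Cluster 12, with 156 cells, had *JUND* at 709.8 CPM beside *FOS* at 41.1 and *JUN* at 35.7, so that the members did not move as one block.

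**Figure D3:**
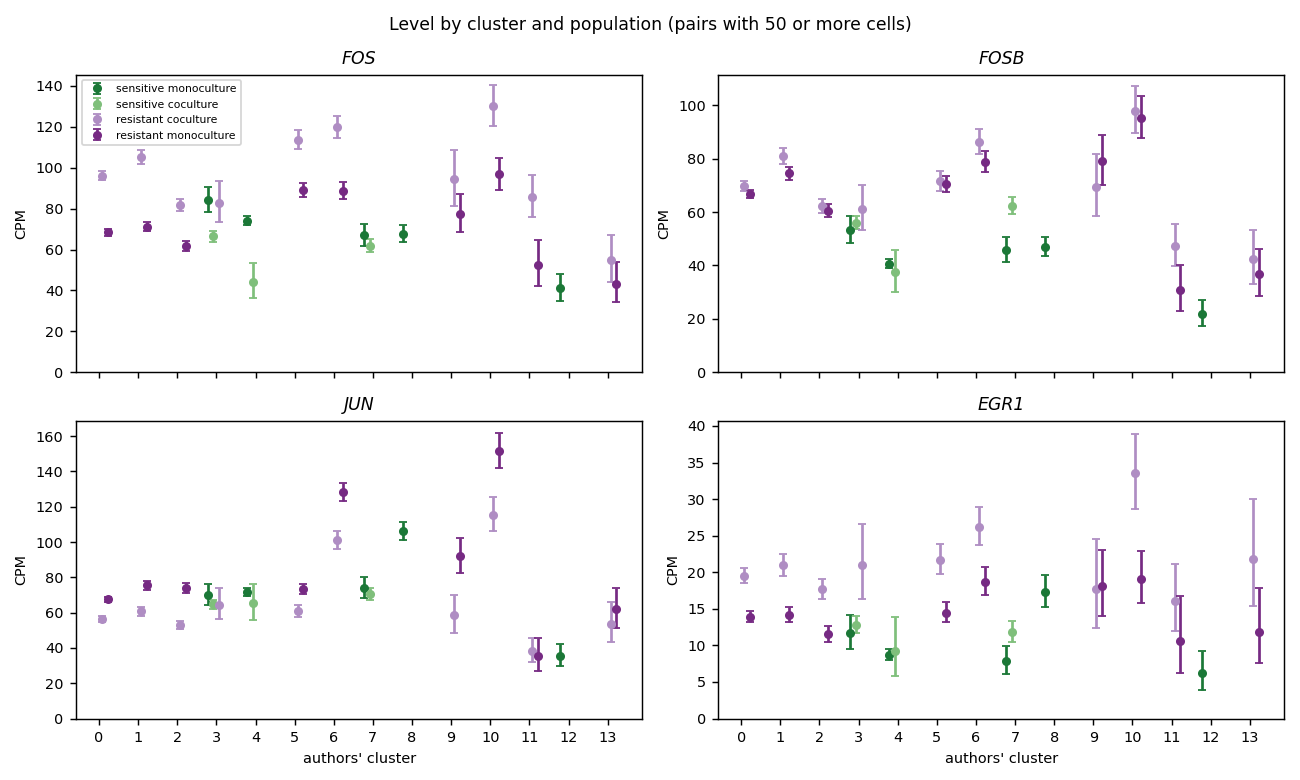
Level in CPM (vertical axes from 0) of *FOS*, *FOSB*, *JUN* and *EGR1* in each of the authors' clusters (horizontal) and population (colour), with 95% Poisson intervals, for pairs of 50 or more cells. In resistant cells cluster 10 has the highest *FOSB* and *JUN*, and clusters 11 and 13 lie low for *FOSB*.

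Co-expression was read in cells thinned to 10000 UMIs each, so that depth was equal, as Pearson's r of log2(UMIs + 1) over 2059 to 7555 cells of a population. These cells share a library, its handling and its free RNA, and r is a description. The median r over the 45 pairs was 0.047 in monocultured and 0.038 in cocultured sensitive cells, and 0.031 in cocultured and 0.030 in monocultured resistant cells. Pairs that reached 0.1 in all 4 populations numbered 4: *FOSB* with *JUN* (r = 0.10 to 0.16), *FOS* with *FOSB* (0.12 to 0.17), *JUNB* with *IER2* (0.10 to 0.16) and *EGR1* with *IER2* (0.10 to 0.18). A further 34 pairs were under 0.1 in all 4. No share over pairs of all genes is given beside these counts. *IER3* had r from -0.04 to 0.10 with the other members. In unthinned cells *FOS* and *FOSB* had r from 0.30 to 0.34 on log-normalized values, which are scaled to each cell's total UMIs. Thinning leaves fewer UMIs per cell and so adds sampling noise, and the thinned and unthinned r are unlike measures.

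Detection of both genes of a pair in a cell was also counted. In resistant coculture 28.5% of 6290 thinned cells had both *FOS* and *FOSB*, against 25.6% for the product of the single shares. Over the 4 populations the observed share of this pair was 1.11 to 1.23 times the product, and that of *FOSB* with *EGR1* 1.25 to 1.38 times. *EGR1* had a UMI in 9.47% of thinned cells of sensitive monoculture and 16.9% of resistant coculture (20.3% and 37.0% unthinned). No cell type that lacks these genes was at hand to set the level of free RNA.

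**Figure D4:**
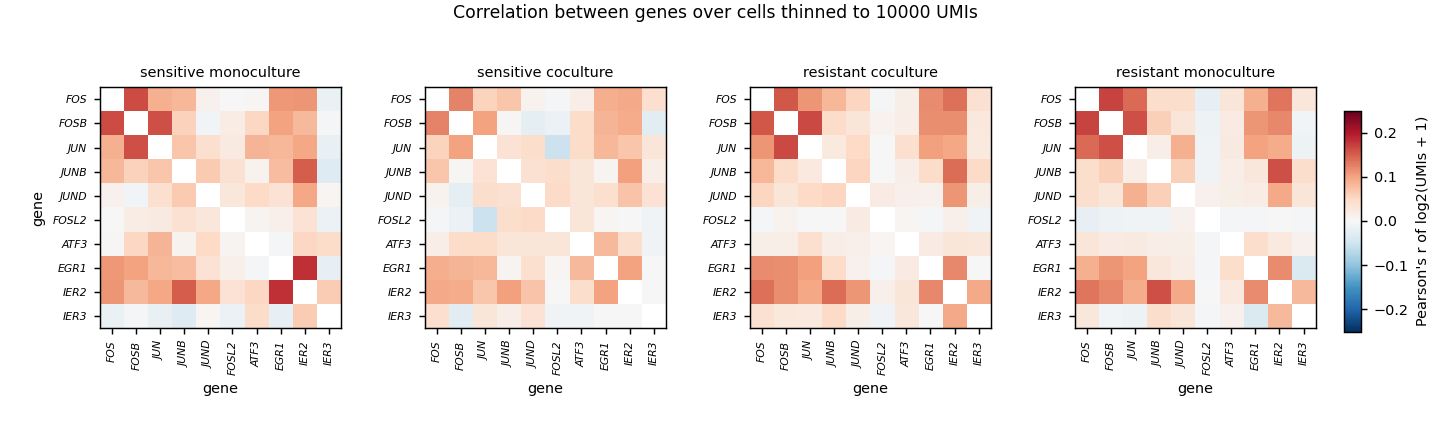
Pearson's r between the genes (both axes) over cells thinned to 10000 UMIs, in 4 panels by population; colour runs from -0.25 (blue) to 0.25 (red) and the diagonal is blank. *FOS*, *FOSB*, *JUN*, *EGR1* and *IER2* form the warm block, and *FOSL2* and *IER3* stay near 0 with most genes.

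Genes most like the members were sought among 6157 that averaged at least 0.1 UMI per thinned cell in every population. By correlation with the summed members, which *IER3* dominates, the 10 highest were *KRT18*, *PTMA*, *KRT8*, *BAG1*, *HIST1H4C*, *NFKBIA*, *PITX1*, *KRT19*, *ELF3* and *RPS16*, with a mean r of 0.17 to 0.12. The sum was replaced by the mean z-score over members after these values were seen. The list then began with *DUSP1* (mean r = 0.17), *KLF2* (0.15) and *KLF6* (0.14), all on the list of other immediate early genes, and *NR4A1* and *NFKBIA* from that list followed among the first 10. Shares at r of at least 0.1 were taken over 6581 to 6953 non-members, those with at least 0.1 UMI per thinned cell in the population. With the sum the share was 0.877% and 0.577% in monocultured and cocultured sensitive cells, and 0.581% and 0.699% in cocultured and monocultured resistant cells. For the mean z-score the shares were 0.604%, 0.118%, 0.134% and 0.122%. Of the 10 members, 8 passed that minimum. Against the sum of the other 9, the members that reached 0.1 numbered 1, 0, 4 and 1 in the same order. Against the mean z-score of the other 9 they numbered 6, 6, 6 and 7. The lowest genes of both rankings included mitochondrial ones.

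Signs of handling were set beside the members. The mean z-score of the 10 genes had r from -0.03 to 0.02 with the summed list of 25 heat shock genes over cells, and from -0.11 to -0.08 with the mitochondrial percent. With the mean z-score of the other immediate early genes it was 0.22 to 0.31. The heat shock list summed to 11016, 12075, 10427 and 10048 CPM in the order used above, with sensitive cells of the coculture highest. The members at their lowest in a population numbered 3, 3, 2 and 2 in that order, and those at their highest 4, 0, 4 and 2. The part of heat shock level in the members' levels was not tested. Of the 25 genes 0 passed 1.5-fold in cocultured against monocultured sensitive cells, where 5.13% of all genes were higher and 5.91% lower, with *HSPA6* and *HSPA4L*, both chaperones, at 0.58 just under it. Between the monocultures 0 were higher (6.66% of all genes) and 3 lower, a share close to the 12.5% of all genes. *HSPA1B*, an inducible chaperone, was at -0.68 there. In the upper against the lower tertile of that list, *FOS* was 0.784 times in sensitive monoculture. It was 1.04 to 1.08 times in the other 3 populations, with overlapping counting intervals in each. *IER3* was 1.08 to 1.34 times. *ATF3* was 1.06 to 1.46 times, but its counting intervals in the upper and lower tertiles overlapped in all 4 populations. *EGR1* ran from 0.674 times in sensitive monoculture to 1.36 times in sensitive coculture, where its intervals overlapped. *JUNB* at 0.842 to 0.927 times and *JUND* at 0.835 to 0.980 times were lower in the upper tertile in all 4 populations. The intervals overlapped for *JUNB* in sensitive coculture and for *JUND* in sensitive monoculture. Taken singly, *IER3* had r from 0.05 to 0.19 with the heat shock list over cells, and *JUND* from -0.15 to -0.05.

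From 10% mitochondrial UMIs upward several members were lower. Below that the direction varied. *FOSB* was lower under 10% than at 10% to 20% in resistant cells, at 62.7 against 75.5 CPM in coculture and 61.8 against 72.0 in monoculture. In both sensitive populations it was higher under 10%. *FOS* in resistant coculture was at 94.3 CPM under 10% and 103.3 at 10% to 20%, while *IER3* was highest under 10% in all 4 populations. *FOS* in sensitive monoculture was at 84.1 CPM in cells with 10% to 20% mitochondrial UMIs, 61.5 with 20% to 30% and 39.5 in the barcodes of that library with 30% or more, which lie outside the annotation and whose lineage was not used. In resistant monoculture the levels were 75.9, 56.0 and 37.2 CPM. *FOSB*, *JUN* and *IER3* also were lower at 20% to 30% than at 10% to 20% in all 4 populations. *FOSL2* was higher there in all 4, from 1.17 to 1.82 times, and *JUNB* was at 143.4 and 144.7 CPM in sensitive monoculture. In the barcodes with 30% or more *JUNB* was lower than at 10% to 20%, at 108.3 CPM or 0.755 times in the sensitive monoculture library and 117.4 CPM or 0.929 times in the resistant one. CPM takes mitochondrial UMIs into its total, and the part of the mitochondrial share in the levels was not tested.

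**Figure D5:**
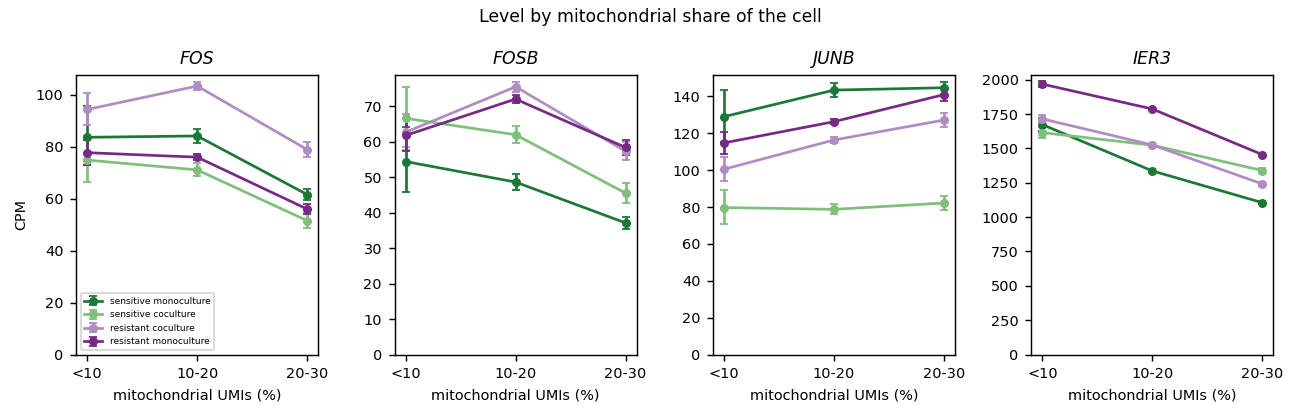
Level in CPM (vertical axes from 0) of *FOS*, *FOSB*, *JUNB* and *IER3* in annotated cells grouped by mitochondrial share (horizontal, percent of UMIs), by population, with 95% Poisson intervals. *FOS* and *IER3* are lower at 20% to 30% than at 10% to 20% in all 4 populations, and *JUNB* is not. In both resistant populations *FOSB* is lower under 10% than at 10% to 20%.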

How the data were processed

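The 3 libraries, 1 for each spheroid composition, held single-cell RNA of CAMA-1 cells. The authors aligned reads to GRCh37 and counted UMIs with Cell Ranger 3.0.2 (per the submitters' processing notes), and deposited raw UMI counts per gene and barcode. They also deposited an annotation of the kept cells, of which the UMI and gene counts, mitochondrial percent, phase, cluster and population were used and 11 columns were not. The study's methods state that doublets and cells with under 2 transgene UMIs were removed. The annotation of both monocultures holds every barcode within the limits on UMIs, genes and mitochondrial percent, and 55 and 253 of these cells scored above 0.25 in scrublet here. In the coculture 1127 of 2059 sensitive and 3932 of 6292 resistant cells had 2 or more transgene UMIs, and 59 and 267 scored above 0.25.

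Rows with no symbol (0.523% to 0.591% of UMIs) were left out. UMIs were summed per population (70896822 to 270891547) and scaled to CPM with exact 95% Poisson intervals. Shares carry Clopper-Pearson intervals in the calculation. Log2 ratios used a pseudocount of 1 CPM and at least 50 UMIs over both populations. They understate changes of low genes. The intervals of ratios are normal approximations on the counts. No count test was run because 1 library per condition leaves no replicate. Thinning drew 10000 UMIs per cell without replacement, and 0 to 3 cells per population were shallower. Positions are from GENCODE lifted to GRCh37. Older symbols were matched through name tables (*CCN1* by its older name, for example) and PECAM1 was not matched.

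The members and lists were chosen with earlier results of these data known. All 10 members are named, and from each list the 3 genes with the largest absolute log2 ratio in cocultured against monocultured sensitive cells and the 3 between the monocultures, and the 10 genes most like the summed members. Not every such gene is described. Ratios and correlations were tested on simulated data. Tools were Python 3.11.15, numpy 2.4.6, scipy 1.17.1, scanpy 1.11.5, and edgeR 4.0.16 in R 4.3.3 for TMM factors used as scaling only. Alternatives covered the pseudocount, scaling, UMI minimum, phase, mitochondrial share, transgene UMIs, doublets, heavy cells, heat shock level, depth and log-normalized values.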

Additional observations from a re-analysis of the deposited data

Results flagged for a closer look

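For 5 members the coculture differed from the monoculture in opposite directions in the lineages, with counting intervals that left out 0 in both, as 22.1% of 12244 genes did. At this depth small differences leave out 0, as they did for every member in both lineages. Genes with few UMIs qualify less easily, so the share over all genes is not a like measure. The difference between the lineages was not tested, since each condition had 1 library. The log2 ratio, coculture over monoculture, was -0.15 in sensitive and 0.44 in resistant cells for *FOS*. For *FOSL2* it was -0.67 and 0.16, and for *ATF3* -0.36 and 0.53. *IER2* had -0.056 and 0.11, while *IER3* ran the other way with 0.27 and -0.22. In *IER2* the value for sensitive cells changed sign in the middle tertile of the heat shock list. *ATF3* in sensitive cells was at -0.070 in cells with 2 or more transgene UMIs and at -0.64 under 15% mitochondrial UMIs, and *IER3* at 0.070 under 15%. *FOSL2* in resistant cells was at 0.061 under 15%. With log-normalized values *ATF3* was at -0.014 and 0.017 and *FOSL2* at -0.033 and 0.0028. Both genes are too low for large ratios with the offset of that measure.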

How the results depend on the processing

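No paired analysis was possible because there was 1 library per condition and no replicate numbers to pair, and no library could be left out. Of 112 alternative counts of members past 1.5-fold, 84 were within 1.5 times the main count. Of 56 alternative medians 40 lay between the median of the members' lower bounds and the median of their upper bounds. That range is not a counting interval of the median. Of 560 values of single members 330 moved by less than the counting interval and 13 changed sign. In 6 of these, all *FOS* or *JUN* between the monocultures, the counting interval of the main value included 0, and the other 7 are given below. A pseudocount of 100 CPM, the offset of the log-normalized values, was added after seeing the data. In sensitive cells, coculture over monoculture, 1 member was lower with a pseudocount of 10 CPM, in G1 cells and in the middle heat shock tertile, and 0 were with mean log-normalized values and with 100 CPM. The median was -0.17 without mitochondrial genes in the library size and -0.035 with log-normalized values and with 100 CPM, and *IER2* was at 0.013 in the middle tertile. Between the monocultures, 0 were lower with a pseudocount of 10 or 100 CPM and with log-normalized values. The count higher there was 2 with TMM factors and in the middle tertile, 3 in cells with 2 or more transgene UMIs, and 0 with log-normalized values, with 100 CPM and under 15% mitochondrial UMIs. The median was 0.13 with TMM, -0.055 without mitochondrial genes, 0.15 with 2 or more transgene UMIs and 0.080 in the middle tertile. In resistant cells, coculture over monoculture, 1 member was higher with a pseudocount of 0.1 CPM, in G1 cells, under 15% mitochondrial UMIs and in the middle tertile. The median was 0.013 with TMM factors and with 100 CPM and 0.0094 with log-normalized values, and 0.13 in the middle tertile, and *FOSB* was at -0.017 with TMM factors. Within the coculture, 0 were higher and 0 lower with a pseudocount of 10 or 100 CPM and with log-normalized values. The count higher was 1 without mitochondrial genes and after thinning, and the count lower 0 under 15% mitochondrial UMIs and with 2 or more transgene UMIs. The median was 0.027 with log-normalized values, 0.057 with 100 CPM, 0.12 under 15%, 0.28 in the middle tertile and 0.21 after thinning. *IER3* was at -0.013 without mitochondrial genes, -0.031 with log-normalized values, -0.072 in G1 cells and -0.0047 after thinning, and *JUN* at 0.066 in the middle tertile. The median pairwise r was 0.083 in sensitive monoculture, 0.061 in resistant coculture and 0.060 in resistant monoculture without thinning, on log-normalized values. With the offset of 100 CPM, *FOSL2*, *ATF3* and *EGR1* are too low to pass 1.5-fold, so their lost calls follow from their level. The cause of the other changes was not tested. The depth limits *FOSL2* and *ATF3* most, with 230 to 829 UMIs per population.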
